A study of Homo sapiens with 21 samples.

Results

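The supply of deoxyribonucleoside triphosphates (dNTPs), the building blocks of DNA, was followed through 9 genes: RRM1, RRM2, RRM2B, TK1, DCK, TYMS, DUT, DTYMK and SAMHD1. They were taken by gene symbol from a table of 23368 genes. All 9 were present, and all 9 were among the 19694 genes that were not at 0 in every library and were therefore tested. Transcripts were measured by RNA-seq in hTERT-HPNE cells, an immortalized nontransformed human pancreatic line that carries telomerase. The cells received fresh medium and were collected untreated (0 h), or 4, 8 and 24 h after 300 μM H2O2, which causes oxidative stress, or 400 ng/ml neocarzinostatin (NCS), a radiomimetic drug that generates DNA double-strand breaks. These 7 groups held 3 biological replicates each, 21 libraries in all, and every group was grown with EGF and puromycin. Whether the sequenced cells carried the fluorescent p53 reporter used elsewhere in the study was not given in the sources used here. Untreated cells were collected at 0 h only, so the time elapsed since the change of medium and the treatment cannot be told apart.

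Ribonucleotide reductase converts ribonucleotides to deoxyribonucleotides and is the rate-limiting step of dNTP synthesis. Its large subunit, RRM1, works with either of a pair of small subunits, RRM2 or RRM2B (also called p53R2). RRM2 is made in S phase and degraded after it. RRM2B is a p53 target that serves DNA repair and mitochondrial DNA in cells outside S phase. The remaining enzymes feed or drain the same pools. TK1 and DCK phosphorylate salvaged thymidine and deoxycytidine, DUT turns dUTP into dUMP, TYMS methylates dUMP to dTMP, DTYMK phosphorylates dTMP, and SAMHD1 hydrolyzes dNTPs.

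The values were rLog counts on a log2 scale, in which a step of 1 is a doubling and low values are shrunken toward the gene's mean, so that changes of low genes are understated. They are not divided by gene length, and the sequencing depth behind them is unknown. A gene was said to rise or fall where limma gave a Benjamini-Hochberg adjusted p-value under 0.05, and to be differentially expressed where the log2 difference also exceeded 1. Library medians lay between 7.15 and 7.19. Replicate 2 of H2O2 at 8 h was the library farthest from its own group, and several results that rest on it are given with and without it. The cells expressed the mesenchymal genes VIM (16.8 to 17.2), COL1A1 (17.5 to 18.1) and NES (11.8 to 12.3) and the duct keratin KRT18 (11.4 to 11.9), whereas the duct markers EPCAM (-1.77 to -1.74) and KRT19 (0.58 to 0.73) were near the bottom of the table. Other markers lay between: the duct genes KRT7, KRT8, SOX9 and MUC1 ranged from 5.78 to 8.28 and the mesenchymal gene S100A4 from 4.98 to 5.28. INS, PDX1, PTF1A, PRSS1, CELA3A and CD3E, which mark islet, acinar and T cells, were listed at 0 in every library. The other acinar and islet markers examined were at 0.68 or lower. Of the other leukocyte markers, PTPRC was low (0.89 to 0.98), but CD68 was expressed (9.93 to 10.57).

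The small subunits moved in opposite directions, and by 24 h the large gap between them in untreated cells had nearly closed. RRM2 (chromosome 2, positive strand) stood at 12.65, 12.70 and 12.67 in the 3 untreated libraries, with a mean over all libraries at the 95th percentile of tested genes. RRM2B (chromosome 8, negative strand) stood at 9.85, 9.78 and 9.80, with a mean over all libraries at the 80th percentile. Exon lengths of the genes are similar, 5323 bases for RRM2 and 5548 for RRM2B over all GENCODE v29 exons. Per base the gap was slightly larger: RRM2B minus RRM2 was -2.92 ± 0.066 (SD, n = 3) per length and -2.86 without regard to length. The lengths join all annotated exons, which need not be those expressed or counted, so the per-base gap is approximate.

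After H2O2, the RRM2 value was 12.42, 12.44 and 12.43 in the 4 h libraries, 12.33, 12.38 and 12.33 in the 8 h libraries, and 10.92, 10.83 and 10.88 in the 24 h libraries. After NCS it was 12.66, 12.71 and 12.72 in the 4 h libraries, 12.42, 12.40 and 12.38 in the 8 h libraries, and 10.87, 10.94 and 10.95 in the 24 h libraries. The 4 h NCS libraries overlapped the untreated libraries, and every library of the other 5 treated groups lay below all untreated libraries. RRM2 fell by 0.24 at 4 h in H2O2 (95% interval -0.29 to -0.19, adjusted p = 3.96e-07 in limma), by 0.33 at 8 h and by 1.80 at 24 h. In NCS the difference at 4 h was 0.03 (-0.03 to 0.08, adjusted p = 0.612), and RRM2 then fell, with differences of -0.27 at 8 h and -1.75 at 24 h. Most of the fall came late: 18.2% of the 24 h difference was present at 8 h in H2O2, and 15.6% in NCS. In both treatments RRM2 at 24 h was far below its untreated level on this scale, lower by 3.47-fold in H2O2 and 3.37-fold in NCS. In bulk libraries such as these, fewer cells in S phase and less RNA per cell cannot be told apart.

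RRM2B measured 9.93, 9.99 and 9.93 after 4 h of H2O2, 10.48, 10.22 and 10.43 after 8 h, and 10.68, 10.70 and 10.70 after 24 h. With NCS it measured 10.15, 10.27 and 10.27 after 4 h, 10.45, 10.44 and 10.40 after 8 h, and 10.65 in all 3 libraries after 24 h. Every treated library exceeded every untreated library. RRM2B rose by 0.14 (95% interval 0.04 to 0.24, adjusted p = 0.0198), 0.57 and 0.88 in H2O2, and by 0.42 (0.32 to 0.52, adjusted p = 3.41e-06), 0.62 and 0.84 in NCS. The 4 h rise in H2O2 was the least secure of these calls: it was lost when untreated replicate 2 (adjusted p = 0.071), untreated replicate 3 (0.0545) or H2O2 replicate 2 (0.0792) was left out. Without replicate 2, the 8 h rise in H2O2 was 0.65 instead of 0.57. By 8 h RRM2B had covered more of its 24 h difference than RRM2 in both treatments. In H2O2 64.2% of the RRM2B difference was in place at 8 h, a share that would be higher without replicate 2. At 4 h in H2O2 the shares were close, 16.1% for RRM2B and 13.4% for RRM2. In NCS 73.8% of the RRM2B difference was in place at 8 h and 49.9% already at 4 h.

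**Figure D1:**
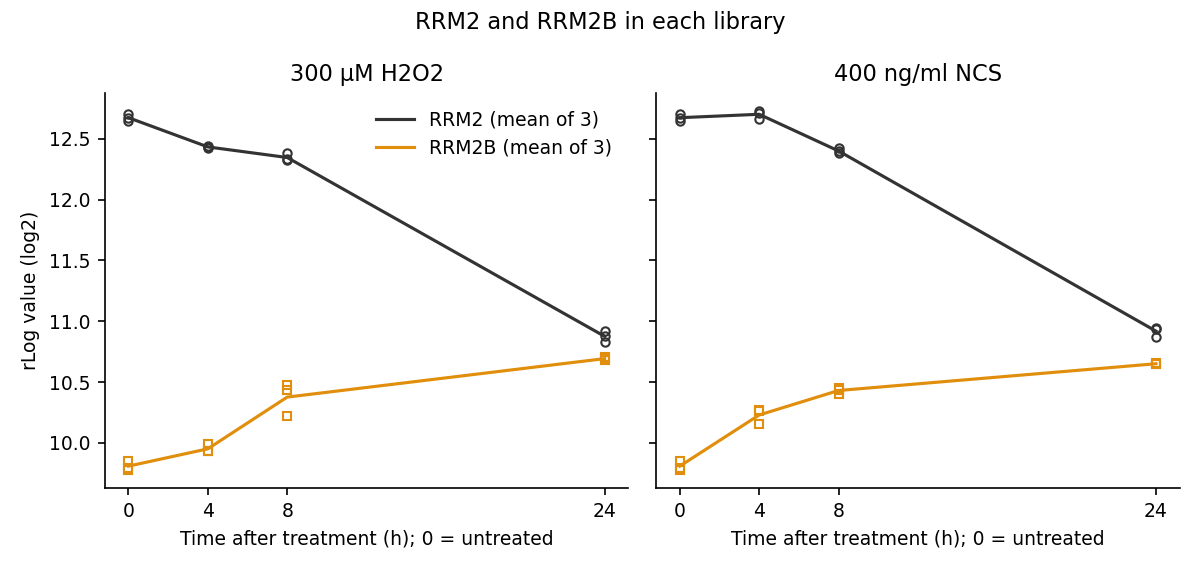
rLog value (log2, vertical axis) of RRM2 (circles) and RRM2B (squares) in each library against hours after treatment (0 h is untreated), with H2O2 on the left and NCS on the right and lines through the means of 3. RRM2 stays above 12.3 until 8 h and drops to about 10.9 at 24 h in both panels, while RRM2B climbs from about 9.8 to about 10.7.

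Ordered by level, RRM2 was highest in NCS at 4 h (12.70) and untreated cells (12.67), whose libraries overlapped. It was followed by H2O2 at 4 h, NCS at 8 h and H2O2 at 8 h, each apart from the next, and last came both 24 h groups, which overlapped each other. RRM2B ran almost the other way: H2O2 at 24 h (10.69) and NCS at 24 h (10.65) were highest, NCS and H2O2 at 8 h came next and overlapped, as did H2O2 at 8 h and NCS at 4 h, and H2O2 at 4 h (9.95) and untreated cells (9.81) were lowest and apart. The overlap of H2O2 at 8 h with NCS at 4 h came from H2O2 replicate 2 (10.22) only.

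The difference between the small subunits was then taken within each library, as the RRM2B value minus the RRM2 value. It was -2.79, -2.92 and -2.87 in untreated cells. After H2O2 it was -2.49, -2.45 and -2.50 in the 4 h libraries, -1.85, -2.16 and -1.90 in the 8 h libraries, and -0.24, -0.14 and -0.18 in the 24 h libraries. After NCS it was -2.51, -2.44 and -2.46 in the 4 h libraries, -1.97, -1.96 and -1.98 in the 8 h libraries, and -0.22, -0.29 and -0.30 in the 24 h libraries. All libraries of each treated group lay above all untreated libraries, and each time lay above the time before it, but RRM2B did not overtake RRM2 in any library. Relative to untreated cells the difference shifted by 0.38, 0.89 (0.99 without replicate 2 of that group) and 2.68 in H2O2. In NCS it shifted by 0.39, 0.89 and 2.59. The ratio of RRM2B to RRM2 was thus 6.40-fold and 6.04-fold higher at 24 h in H2O2 and NCS. Each of these 6 shifts had an exact permutation p of 0.1 (two-sided), the smallest that 3 against 3 libraries allow, and 0.15 after adjustment over 9 comparisons.

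The shift differed by less than 0.1 between the treatments at each time, although at 4 h its parts, RRM2 and RRM2B, each differed by more than that. Between H2O2 and NCS the within-library difference changed by -0.01 at 4 h (95% interval -0.14 to 0.12 from the spread pooled over 7 groups, exact permutation p = 0.9), by less than 0.01 at 8 h (-0.13 to 0.13, p = 1.0) and by 0.09 at 24 h (-0.05 to 0.22, p = 0.2), where it ranged from 0.06 to 0.11 with 1 library left out. At 8 h this rested on H2O2 replicate 2, without which it was 0.10. The spread at 8 h was unequal (SD 0.17 in H2O2 and 0.01 in NCS), which the pooled interval does not reflect. Pairs of 8 h libraries differed by -0.20 to 0.13. At 4 h the fall of RRM2 made up 62.8% of the shift in H2O2 and the rise of RRM2B 37.2%, whereas in NCS the RRM2B difference made up all of it (107%) and the RRM2 difference was slightly positive. At 8 h RRM2B made up 63.4% of the shift in H2O2 and 69.5% in NCS. By 24 h RRM2 made up most of it, 67.0% and 67.6%.

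**Figure D2:**
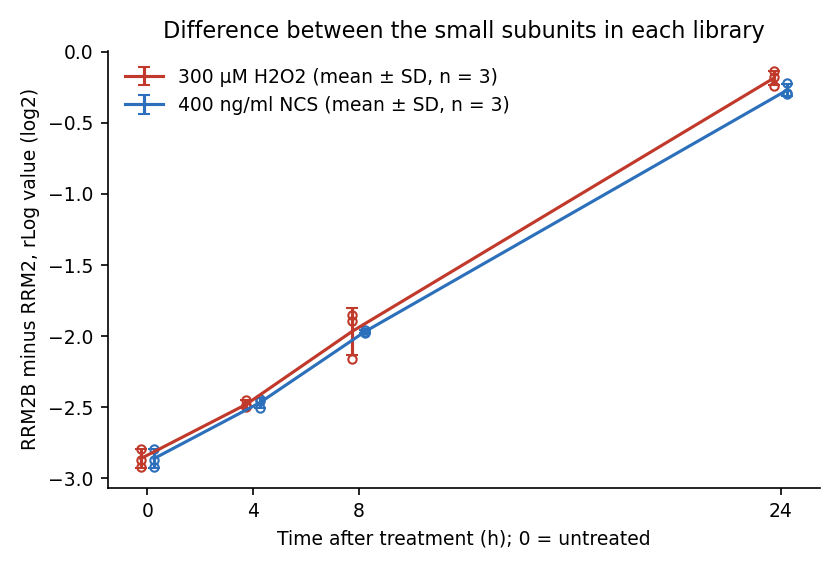
RRM2B minus RRM2 (rLog values, log2, vertical axis) in each library (open circles) against hours after treatment (0 h is untreated), with lines through the means and bars of 1 SD (n = 3) for H2O2 (red) and NCS (blue), offset sideways for clarity. The mean climbs from -2.86 in untreated cells to -0.18 in H2O2 and -0.27 in NCS at 24 h, and both treatments run together.

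The other 7 members were compared with untreated cells in the same fit. At 4 h few of the 9 members had changed. In H2O2, 1 rose (RRM2B) and 2 fell (RRM2 and RRM1), where 45.9% of all tested genes were called in either direction, and in NCS 1 rose (RRM2B) and 1 fell (DCK), against 17.2% of all genes. The share of members called was thus below or near the background at 4 h. RRM1 measured 12.27, 12.31 and 12.35 in untreated cells and 12.18, 12.27 and 12.18 after 4 h of H2O2. These groups overlapped, and the difference of -0.10 (adjusted p = 0.0281) was not called when only the compared groups were fitted (adjusted p = 0.0654). It was also lost without untreated replicate 2 or 3, or without H2O2 replicate 1 or 3 (adjusted p between 0.0601 and 0.118). DCK measured 9.64, 9.70 and 9.62 in untreated cells and 9.46, 9.54 and 9.53 after 4 h of NCS, with no overlap and a difference of -0.15 (adjusted p = 0.0132), which was not called without untreated replicate 2 (0.0666) or NCS replicate 1 (0.0755).

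At 8 h the same counts were reached in both treatments: 1 member rose and 5 fell, with 3 not called, where 37.4% of all genes were called in H2O2 and 23.9% in NCS. The 5 that fell in H2O2 and in NCS were RRM1 (-0.27 and -0.25), RRM2, DTYMK (-0.20 and -0.16), DUT (-0.20 and -0.22) and DCK (-0.15 and -0.28). TK1 (-0.10 and -0.08), TYMS (-0.04 and -0.08) and SAMHD1 (-0.08 and 0.10) did not pass. For TK1 in H2O2 this changed with 1 library: its difference passed without untreated replicate 1 (-0.14, adjusted p = 0.0494) or without H2O2 replicate 3 (-0.15, adjusted p = 0.023).

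At 24 h 1 member rose and 7 fell in each treatment, and SAMHD1 did not pass. Over all genes 40% were called in H2O2 and 38% in NCS, with 19.9% and 18.4% called lower. RRM2, TYMS and RRM1 were differentially expressed, each lower by more than 1, which held for 1.29% of all tested genes in H2O2 and 1.37% in NCS. RRM1, the shared large subunit, measured 11.26, 11.24 and 11.27 after H2O2 and 11.22, 11.20 and 11.29 after NCS. These libraries lay below every library of any earlier time, with differences from untreated cells of -1.06 and -1.08 (SE 0.0361 each). TYMS measured 9.69, 9.85 and 9.64 in untreated cells, 8.49, 8.43 and 8.49 after H2O2 and 8.40, 8.50 and 8.57 after NCS. Both treated groups were far below the untreated group, with differences of -1.26 and -1.24, although at 8 h no more than 6.07% of the 24 h difference had appeared in either treatment.

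The salvage kinase TK1 followed the timing of TYMS. It measured 12.30, 12.39 and 12.47 in untreated cells, 11.45, 11.39 and 11.42 at 24 h of H2O2 and 11.45, 11.55 and 11.63 at 24 h of NCS, a fall of 0.97 (95% interval -1.07 to -0.86) and 0.84 (-0.95 to -0.74) with no overlap. At 8 h its difference was 9.82% and 8.89% of that at 24 h. DCK reached 8.96, 8.97 and 8.94 in H2O2 and 9.02, 9.06 and 8.89 in NCS, again below all earlier libraries, and its differences were -0.70 and -0.66. In NCS 42.3% of that fall was present at 8 h, compared with 21.9% in H2O2.

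DUT and DTYMK, the enzymes on either side of thymidylate synthase, fell by similar amounts. DUT went from 10.39, 10.31 and 10.37 in untreated cells to 9.63, 9.60 and 9.60 in H2O2 and 9.61, 9.58 and 9.60 in NCS at 24 h. The groups did not overlap, and the differences were -0.74 and -0.76. DTYMK went from 10.76, 10.84 and 10.85 to 10.12, 10.10 and 10.14 in H2O2 and 10.00, 10.12 and 10.15 in NCS, and its differences were -0.70 and -0.73. SAMHD1 stayed between 8.60 and 8.88 over all 21 libraries, its treated groups overlapped the untreated group at each time in both treatments, and its 24 h differences were -0.03 (95% interval -0.15 to 0.08) and -0.05 (-0.17 to 0.06).

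**Figure D3:**
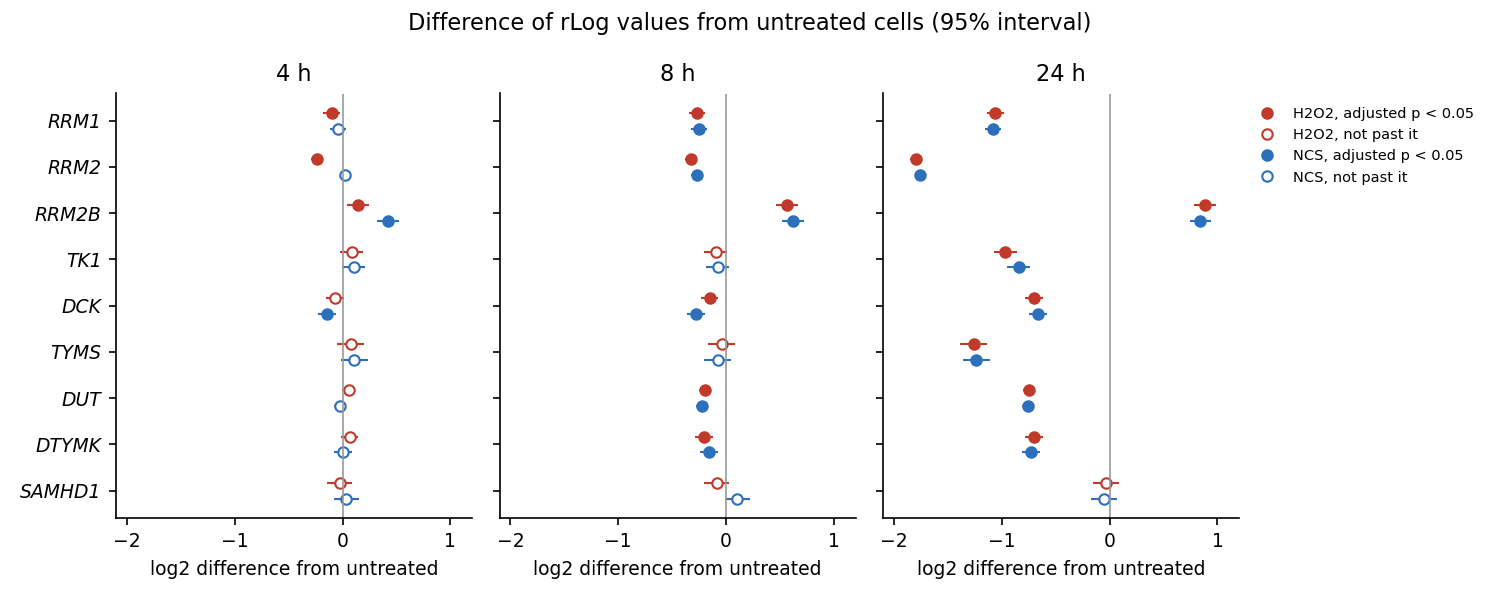
Difference of rLog values from untreated cells (log2, horizontal axis) with 95% intervals for the 9 members at 4, 8 and 24 h of H2O2 (red) and NCS (blue), n = 3 libraries a group. Filled points have an adjusted p under 0.05 in limma. At 24 h 7 members lie left of 0, RRM2B lies right of it and SAMHD1 straddles it.

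Successive times were also compared, over steps of unequal length, so that the sizes of the steps are not rates. From 4 to 8 h, 1 member rose and 5 fell in H2O2 (45.7% of all genes called), and 1 rose and 7 fell in NCS (13.7%). From 8 to 24 h, 1 rose and 7 fell in H2O2 (42.6%), and 1 rose and 8 fell in NCS (29.9%). RRM2B was the member that rose in each of these steps, by 0.42 and 0.32 in H2O2 and by 0.20 and 0.22 in NCS. Without replicate 2 of H2O2 at 8 h, its H2O2 steps were 0.50 and 0.24. RRM2 fell by 0.09 and 1.47 in H2O2 and by 0.30 and 1.48 in NCS. SAMHD1 fell in NCS from 8 to 24 h by 0.15 (adjusted p = 0.0411), having been highest at 8 h (8.83, 8.81 and 8.88), and this call was lost under several alternatives (adjusted p up to 0.188). The fall of TYMS from 4 to 8 h in NCS, by 0.18, was as marginal (adjusted p = 0.0488, and up to 0.135 with 1 library left out). The 4 to 8 h fall of TK1 in NCS (-0.18, adjusted p = 0.0216) was lost without NCS 4 h replicate 1 or 2 or NCS 8 h replicate 1 or 2, and that of DCK (-0.14, adjusted p = 0.0256) without NCS 4 h replicate 2 or 3 or NCS 8 h replicate 3.

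H2O2 and NCS were also compared directly at each time, which asks whether the response differed between these treatments. Each agent was used at a single dose, so the kind of stress and its strength cannot be told apart. At 4 h, 3 of 9 members differed (44.4% of all genes): RRM2 was lower in H2O2 than in NCS by a log2 difference of -0.27 (95% interval -0.32 to -0.21, adjusted p = 1.04e-07), RRM2B was lower by -0.28 (-0.38 to -0.18, adjusted p = 9.79e-05), and DUT was higher by 0.08 (adjusted p = 0.0284). The libraries of RRM2 and of RRM2B did not overlap between the treatments, whereas those of DUT did. The DUT call was lost with library medians aligned (adjusted p = 0.089), with only the compared groups fitted (0.0672), or without H2O2 replicate 2 or 3 or NCS replicate 1 or 2. At 8 h, 2 of 9 differed (34.1% of all genes), DCK by 0.13 (adjusted p = 0.0153) and SAMHD1 by -0.19 (adjusted p = 0.0126). The DCK call was lost with only the compared groups fitted (0.0647) and without H2O2 replicate 2 (0.0741) or NCS replicate 3 (0.0759), and the SAMHD1 call without NCS replicate 3 (0.0551).

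At 24 h none of the 9 members differed between the treatments in limma, where 21.9% of all genes did, and 1 of them, TK1, had an unadjusted p under 0.05. Its difference of -0.12 (95% interval -0.23 to -0.02, adjusted p = 0.0959) passed with library medians aligned (0.00789), with genes under a mean value of 5 removed (0.0267), with the replicate number as a block (0.0439) and without NCS replicate 1 (0.0328). For the other 8 members the 95% intervals at 24 h lay between -0.15 and 0.14. The change of the treatment difference from 4 to 24 h, tested as an interaction, was called for 2 members, RRM2 (0.22, adjusted p = 7.28e-05) and RRM2B (0.32, adjusted p = 0.000898), against 39.4% of all genes.

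**Figure D4:**
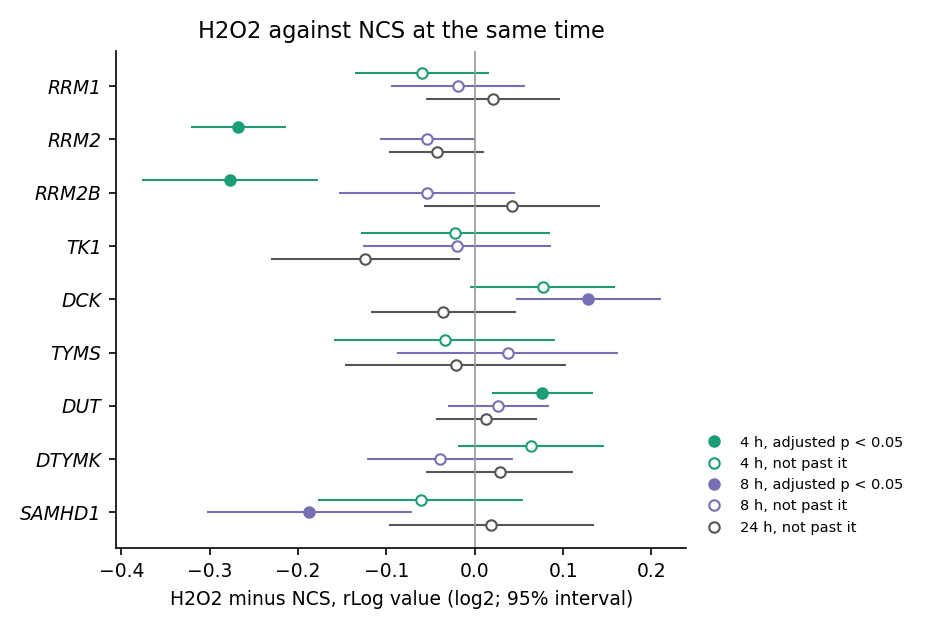
H2O2 minus NCS (rLog values, log2, horizontal axis) with 95% intervals for the 9 members at 4 h (green), 8 h (purple) and 24 h (grey), n = 3 libraries a group. Filled points have an adjusted p under 0.05 in limma. RRM2 and RRM2B at 4 h stand farthest from 0, both below -0.25, and no 24 h point is filled.

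The start regions of the 3 genes that were differentially expressed at 24 h are shown where they hold motifs known from S phase and late cell cycle promoters. RefSeq start regions (GRCh38.p14) were matched by symbol for 8 of 9 members, all but RRM2B. The 250 bases before the start were searched on both strands for the letters TTTCCCGC, TTTGCCGC, TTTGGCGC or TTTCGCGC (E2F), CCAAT (the NF-Y site) and TTTGAA (the cell cycle homology region, CHR). Capitals below mark a match, and each sequence is the gene's own strand, 5′ to 3′. The RRM2 stretch (chr2:10122609-10122698, positive strand, 130 to 41 bases before the start) holds CCAAT 3 times, the RRM1 stretch (chr11:4094625-4094684, positive strand, the 60 bases before the start) holds it 1 time, and the TYMS stretch (chr18:657603-657632, positive strand, 50 to 21 bases before the start) holds the E2F letters TTTCCCGC read on the other strand. In GENCODE v29 the RRM2 stretch overlaps the first exon of longer transcripts and the TYMS stretch the first exon of TYMS.
RRM2: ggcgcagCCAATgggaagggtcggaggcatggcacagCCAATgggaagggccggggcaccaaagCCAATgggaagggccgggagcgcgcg
RRM1: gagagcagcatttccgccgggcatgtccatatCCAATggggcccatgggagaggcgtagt
TYMS: gcgggacggccGCGGGAAAaggcgcgcgga
CCAAT was present in 4 of the 8 matched members (RRM2, RRM1, DTYMK and SAMHD1) and in 32.0% of 35116 start regions. The E2F letters were present in 1 (TYMS) and in 2.79% of start regions, and TTTGAA in 1 (RRM1, 199 to 194 bases before the start) and in 13.3%. No matches overlapped. Thus SAMHD1, which was not called against untreated cells, held CCAAT as did RRM2, and TK1, DUT and DCK, which fell, held none of these letters in this window.

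By annotation (GENCODE v29, GRCh38, whereas the files were made on hg19), RRM2 shares 1077 exonic bases with a protein-coding gene on the same strand that has only a clone-based name. TYMS (chr18:657604-673578) shares 967 exonic bases with ENOSF1 on the opposite strand, and DCK (chr4:70992538-71030914) shares 199 with MOB1B on the same strand. SAMHD1 shares 1159 with TLDC2, DUT 533 and RRM1 63 with antisense genes, and TYMS a further 183 with TYMSOS, all on the opposite strand. Of these partners ENOSF1 and MOB1B were matched by name in the table. The strand setting of the counting was not given in the sources used here, so reads in these stretches cannot be assigned with certainty. ENOSF1 differed from untreated cells by -0.21 in H2O2 and -0.45 in NCS at 24 h, less than TYMS, and MOB1B by 0.01 and 0.22, against the falls of DCK. RRM2, TYMS and DUT have 3, 2 and 8 named pseudogenes, to which near-identical reads could be lost or from which they could be gained. RRM1 lies at chr11:4094707-4138876, RRM2 at chr2:10120698-10131419, TK1 at chr17:78174075-78187233, DUT at chr15:48331011-48343373, DTYMK at chr2:241675742-241686991 and SAMHD1 at chr20:36889773-36951901.

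Other enzymes around the dNTP pools moved less uniformly than the members. Of 24 tested deoxynucleotide enzymes, 5 rose and 10 fell at 24 h in H2O2 (median -0.03, all tested genes 0.00), and 6 rose and 9 fell in NCS (median -0.05). Among the falls was that of SHMT1 (-0.99 in H2O2 and -0.94 in NCS), the serine hydroxymethyltransferase, which passes a carbon unit from serine to folate. TYMP, which degrades thymidine, rose by 0.58 at 4 h and 0.37 at 24 h in H2O2, and by 0.21 at 24 h in NCS. PNP, the purine nucleoside phosphorylase, rose at 4 h by 0.38 in H2O2 and 0.23 in NCS. TK2, the mitochondrial thymidine kinase, rose by 0.32 at 24 h in H2O2, and CDA, the cytidine deaminase, by 0.32 at 24 h in NCS. At 4 h, 6 rose and 1 fell in H2O2 (MTHFD1, -0.12), and 1 rose and 2 fell in NCS (among them the uracil DNA glycosylase UNG, -0.24). At that time the share of the list called was below that of all tested genes, 45.9% in H2O2 and 17.2% in NCS, whereas at 24 h it was above the 40% and 38% of all genes.

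Ribonucleotide synthesis upstream of the reductase fell with less depth. Of 12 purine synthesis genes, 12 fell at 24 h in H2O2 (median -0.38) and 11 in NCS (median -0.28), led by PRPS2 (-0.69) and PAICS (-0.67) in H2O2 and PPAT (-0.75) and PFAS (-0.71) in NCS. Of 5 pyrimidine synthesis genes 4 fell in each treatment (medians -0.39 and -0.38), among them UMPS (-0.47 and -0.51) and CAD (-0.40 and -0.50). At 4 h DHODH (-0.31) and CAD (-0.27) were among 3 of these 5 that fell in H2O2, and none fell in NCS. Over all 19694 tested genes 3874 fell in H2O2 and 1914 in NCS at that time. The absence of falls among 5 genes in NCS was therefore little below the background. CTPS, the CTP synthase, rose in both, by 0.09 in H2O2 (adjusted p = 0.0322 in limma) and by 0.39 in NCS. Of 10 salvage and transport genes 1 rose and 5 fell at 24 h in H2O2, and 4 rose and 5 fell in NCS. Over all tested genes at 24 h, 19.9% were called lower in H2O2 and 18.4% in NCS, and 3969 and 3863 of 19694 were called higher. The uridine phosphorylase UPP1 rose by 0.88 in H2O2 and 0.22 in NCS, and the nucleoside transporter SLC29A1 fell by 0.73 and 0.59.

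**Figure D5:**
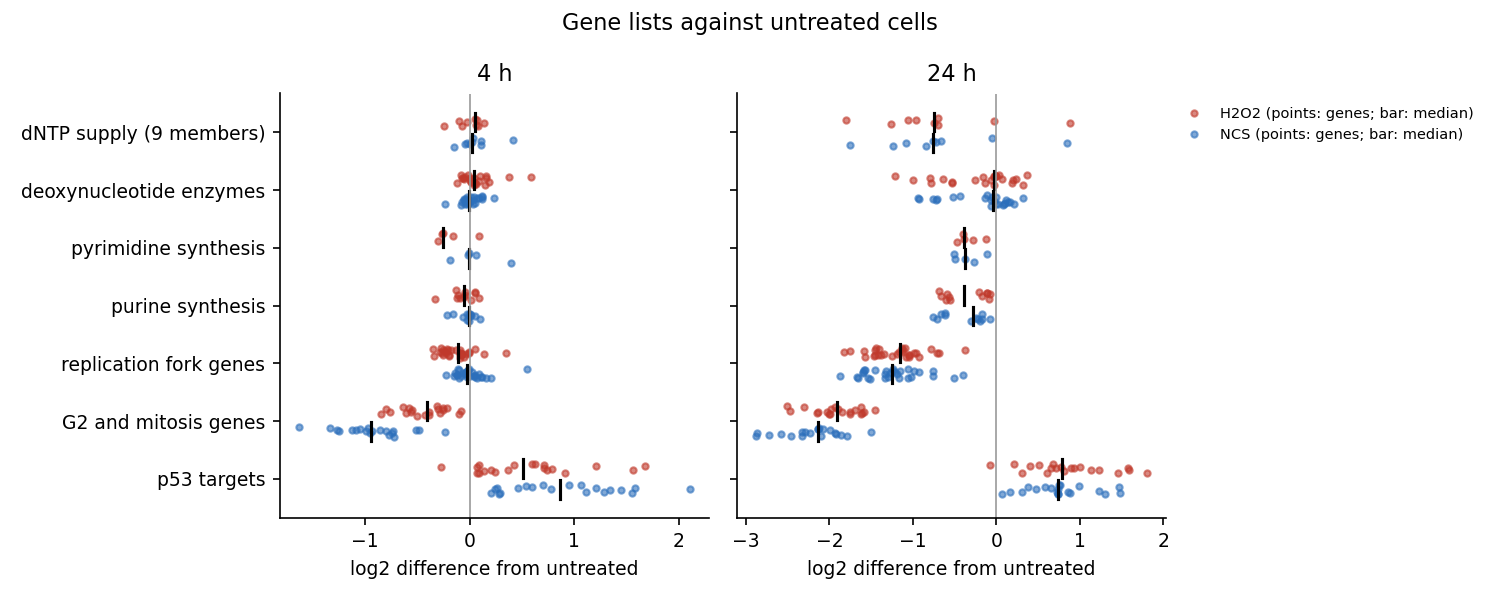
Difference of rLog values from untreated cells (log2, horizontal axis) for the genes of each list at 4 h (left) and 24 h (right) of H2O2 (red) and NCS (blue), with the median as a black bar. At 24 h the replication fork and mitosis genes lie left of 0 without exception. The 9 dNTP supply genes lie left of 0 except RRM2B, with SAMHD1 near 0 (-0.03 in H2O2 and -0.05 in NCS, not called). The p53 targets lie right of 0 except POLH in H2O2.

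RRM2 and the other falling members moved alongside replication and cell cycle genes, and their part in the result was not tested. All 30 replication fork genes fell at 24 h in both treatments, where 19.9% (H2O2) and 18.4% (NCS) of all tested genes were called lower. Their medians were -1.15 in H2O2 and -1.26 in NCS, with extremes of -1.83 (H2O2) and -1.87 (NCS) for MCM10. The RRM2 differences of -1.80 and -1.75 lay near those extremes, and those of RRM1 were smaller than the medians. PCNA, the sliding clamp and also a p53 target, fell least (-0.38 and -0.40) after rising at 4 h by 0.34 in H2O2 and 0.55 in NCS. At 4 h 16 of the 30 replication fork genes fell in H2O2 and 4 in NCS, where 3874 and 1914 of 19694 tested genes fell. The NCS count was near that background. All 20 G2 and mitosis genes fell at 24 h as well, with medians of -1.91 and -2.14. At 4 h these had fallen further in NCS than in H2O2, with medians of -0.94 and -0.41. Compared directly at 4 h, 18 of the 20 were called higher in H2O2 than in NCS, against 5184 of 19694 tested genes. RRM2 at 4 h was instead lower in H2O2. Of the 30 replication fork genes 16 were also lower in H2O2 and 2 higher (median -0.15). Over all tested genes 3554 were called lower.

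RRM2B was set beside 20 other p53 targets in the same way. At 4 h 16 of them rose in H2O2 (median 0.51) and 20 in NCS (median 0.87), and the RRM2B rises of 0.14 and 0.42 were below those medians in both. Compared directly at 4 h, 17 of the 20 were lower in H2O2 than in NCS and 0 higher (median -0.35). RRM2B was lower too (-0.28), as were 3554 of all tested genes. At 24 h 19 rose in H2O2 (median 0.79) and 20 in NCS (median 0.74), where RRM2B at 0.88 and 0.84 was above the medians. Over all 19694 tested genes 5165 rose in H2O2 and 1471 in NCS at 4 h, and 3969 and 3863 at 24 h. BTG2 and CDKN1A, an antiproliferative gene and the CDK inhibitor p21, were among the largest risers in NCS, with 2.10 and 1.58 at 4 h and 1.47 and 1.48 at 24 h. Of 25 regulators of the members, 21 fell at 24 h in H2O2 and 22 in NCS, with medians of -0.56 and -0.59. Over all tested genes 19.9% and 18.4% were called lower. Cyclin E2 (CCNE2), which drives entry into S phase, fell by 1.88 in both, and cyclin F (CCNF), which directs RRM2 to degradation, fell too (-1.18 at 4 h and -1.71 at 24 h in H2O2, -0.75 and -1.81 in NCS). E2F7, a repressor of S phase genes, rose by 0.11 and 0.30 at 4 h in H2O2 and NCS, and by 0.14 at 24 h in H2O2, but fell by 0.16 at 24 h in NCS.

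Across the 21 libraries, the 5 genes most like RRM2 by Pearson correlation among 10025 genes with a mean value of at least 7 were CDC45 (r = 0.996), TCF19 (0.995), RNASEH2A (0.993), ESCO2 (0.992) and RPA1 (0.991), and RRM1 came sixth (0.991). TYMS was at place 20 (0.985), TK1 at 37 (0.980), DUT at 105 (0.967), DTYMK at 117 (0.966) and DCK at 185 (0.954), while SAMHD1 was at 3598 (0.278) and RRM2B near the far end (-0.788). The genes most like RRM2B were CMBL (0.977), FADS3 (0.975), FUCA1 (0.967), NADSYN1 (0.961) and GAL3ST4 (0.959). These correlations describe the 7 groups, from which the libraries are not independent, and the order depended on the libraries and on the measure. Over the 15 libraries without 24 h, a choice made after the data were seen, none of the 5 genes named for RRM2 and 2 of the 5 for RRM2B stayed among the 5 nearest, and the correlation of RRM2 with TYMS dropped to 0.408. With all 21 libraries ranked by Spearman correlation instead, 1 of the 5 named for RRM2 (RNASEH2A) and 0 of the 5 for RRM2B were among the 5 nearest.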

How the data were processed

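RNA-seq libraries (TruSeq stranded mRNA, paired reads) of 21 hTERT-HPNE samples were processed by the authors: reads were aligned with HISAT2 to hg19 (submitters' processing notes), counted with htseq-count and passed to DESeq2, versions and annotation not given in the sources used here. The table deposited by the authors holds the resulting rLog values on a log2 scale, so count tests could not be applied and depth is unknown. Of 23368 genes, 3674 at 0 in every library were removed. One limma model (3.58.1, R 4.3.3) with a mean-variance trend was fitted to 7 groups, and 14 comparisons were tested two-sided with Benjamini-Hochberg adjustment over 19694 genes. The step was tested on simulated data. Within-library differences were tested by exact permutation. Lists are described by counts and medians, without a test. Named genes are the members, the 5 most correlated with RRM2 and with RRM2B, and for each list the 2 largest called rises and falls at 4 and 24 h. Some genes this rule names are not reported here. ENOSF1 and MOB1B were added for their overlap, and the values of other list genes at the remaining times follow from these names. E2F7, PCNA and POLH are named at other comparisons after their values were seen. The members and lists were chosen with earlier results of these data known. Alternatives were aligned library medians, quantile normalization, a filter on mean value, separate fits of the compared groups, no trend, other thresholds, a replicate block and leaving out each library. Columns of per-sample values belonging to other samples numbered 0.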

Additional observations from a re-analysis of the deposited data

Results flagged for a closer look

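Of the members, 5 differences between H2O2 and NCS at the same time passed the limma test and are listed for that reason. At 4 h RRM2 differed by -0.27 (adjusted p = 1.04e-07), RRM2B by -0.28 (adjusted p = 9.79e-05) and DUT by 0.076 (adjusted p = 0.0284). At 8 h DCK differed by 0.13 (adjusted p = 0.0153) and SAMHD1 by -0.19 (adjusted p = 0.0126). The RRM2 and RRM2B differences held without any 1 library, whereas those of DUT, DCK and SAMHD1 were each lost when certain libraries were left out. The treatment difference of RRM2 changed by 0.22 from 4 to 24 h (adjusted p = 7.28e-05) and that of RRM2B by 0.32 (adjusted p = 0.000898), both by a test of that change itself.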

How the results depend on the processing

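Every call of RRM2 and RRM2B kept its direction under the alternatives, and kept its side of the threshold except as follows. With quantile normalization the fall of RRM2 from 4 to 8 h in H2O2 was -0.031 and not called (adjusted p = 0.346), and its H2O2 to NCS difference at 8 h was -0.071 and called (adjusted p = 0.0363). The rise of RRM2B at 4 h in H2O2 ranged from 0.12 to 0.16 without 1 library and lost its call without any of 3. Differences that were not called and lay near 0 changed sign. With quantile normalization, RRM2B minus RRM2 between H2O2 and NCS became 0.081 at 4 h and -0.0046 at 8 h, its 4 h shift in H2O2 rose to 0.46, DUT in NCS at 4 h became 0.0011, and SAMHD1 in H2O2 at 4 h 0.025. DTYMK in NCS at 4 h became -0.012 with aligned medians. Without 1 library, RRM2B minus RRM2 between the treatments ranged from -0.029 to 0.0036 at 4 h and from -0.059 to 0.095 at 8 h, RRM2B between the treatments at 8 h from -0.10 to 0.024, TYMS in H2O2 at 8 h from -0.10 to 0.023, DTYMK in NCS at 4 h from -0.026 to 0.022, and SAMHD1 from -0.066 to 0.025 (H2O2 4 h), -0.093 to 0.018 (H2O2 24 h) and -0.0037 to 0.086 (NCS 4 h). Counts of members moved with marginal genes. With quantile normalization 2 members rose at 4 h in H2O2, 2 were higher and 3 lower in H2O2 than NCS at 4 h and 2 lower at 8 h, and the change of the difference was called lower for 2 and higher for 3. RRM1 was the added member in both counts of 3 (-0.096, adjusted p = 0.0468, and 0.14, adjusted p = 0.0452). With only the compared groups fitted, 1 fell at 4 h in H2O2, and 0 were higher in H2O2 than NCS at 4 h or 8 h (0 at 4 h with aligned medians too). At 24 h 1 was lower in H2O2 with aligned medians, the mean filter or the block. Past a log2 difference of 0.58, 0 members rose or fell at 4 h in either treatment, 0 fell at 8 h and 0 rose at 8 h in H2O2; past 1, 3 fell and 0 rose at 24 h in each treatment, and 0 rose or fell in the other comparisons with untreated cells, while 2 fell from 8 to 24 h in each treatment. Without 1 library, the counts ranged from 0 to 1 (rose in H2O2 at 4 h, fell in NCS at 4 h, higher in H2O2 than NCS at 4 and 8 h, lower at 8 and 24 h, and lower for the change of the difference), from 1 to 2 (fell in H2O2 at 4 h) and from 4 to 7 (fell in NCS from 4 to 8 h). They also ranged from 5 to 6 (fell in H2O2 at 8 h and from 4 to 8 h) and from 7 to 8 (fell in NCS from 8 to 24 h). The replicate numbers did not pair the samples: the mean correlation of same-numbered deviations ranged from -0.063 to 0.14 over 13 comparisons, and 0 had every pair over 0.1. With the number as a block the RRM2 differences of -1.80 and -1.75 at 24 h and all other calls of RRM2 and RRM2B remained. Signs of uncalled differences of the other 7 members between treatments or successive times are not listed. Depth is unknown, so counting error could not be separated from the spread between replicates, and rLog shrinkage limits small changes of low genes. The cause of these changes was not tested.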
